A study of Mus musculus with 9 samples.

Results

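The genes described here are 49 antioxidant and glutathione genes of the mouse, most of them for enzymes. They include the regulator pair Nrf2 (Nfe2l2) and Keap1. They were chosen by name. A probe belonged to the set when it was not a control and its gene name in the array files equalled one of 49 symbols in any letter case. All 49 symbols were found, on 66 of the 39429 probes and among 31829 distinct gene names. Membership used no measured value, but the list was drawn up with earlier results of these data known. Each gene is given at 1 reported probe, the brightest that was usable, and all 49 reported probes were well above background on all 9 arrays. For 14 members more than 1 probe was present, and their disagreements are given where they touch a result.

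The study compared the retinal pigment epithelium (RPE), the single layer of pigmented cells behind the retina, with its neighbours on either side, the choroid (CH), which carries the blood supply, and the photoreceptors (PR). All 9 samples came from untreated female C57BL/6 mice labelled as 6 months old, give or take 2 weeks (the study's methods name the J strain and state a slightly lower age), and each tissue was cut from frozen sections by laser dissection, 1 whole eye per sample, with 3 samples per tissue and the RPE removed before the choroid was taken. The study's methods state thicker sections for PR than for RPE and CH, and a stain to identify photoreceptor cells. In the PR comparisons these steps cannot be told apart from the tissue. Each sample was labelled with Cy5 and hybridised on a dual-colour Agilent array against a common Cy3 reference of mouse RPE and choroid RNA, with no dye swap. The value used throughout is the log2 ratio of Cy5 over Cy3, so 0 means the level of that reference, and a difference between tissues is a difference of group means of this ratio. Whether the eyes came from separate mice is not stated, so p-values measure the spread between these samples.

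The median Cy5 signal lay between 617 and 1534 per array, and between 63.1% and 91.8% of spots were well above background, with RPE replicate 2 the highest on both. Without that array, 20 members were called in RPE over PR (10.9% of all genes) and 23 in CH over PR (12.7%), by the thresholds given below. Between RPE and CH 0 were called (0.104% of all genes higher in RPE and 1.7% in CH). The tissue labels were checked against marker genes by their summed Cy5 signal, a sum over probes in arbitrary units. All 8 rod markers were higher in PR than in RPE and in CH past the thresholds used below, with sums of 2205218 to 3275477 in PR, 794375 to 1027416 in RPE and 508127 to 795337 in CH. Of 8 RPE markers, 7 were higher in RPE than in PR and 6 were higher in RPE than in CH. Best1 was well above background on 1 RPE and 1 PR array. Their sums were 2073336 to 2206861 in RPE, 1380654 to 1792844 in CH and 255011 to 323744 in PR, so the CH samples carried much of the RPE marker signal. All 6 fibroblast markers were higher in CH than in RPE, with sums of 904337 to 995287 in CH and 277510 to 376219 in RPE. In such bulk samples, fewer cells of a type and less RNA per cell cannot be told apart.

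Cells that use much oxygen form superoxide and hydrogen peroxide as by-products, and a chain of enzymes removes them. Superoxide dismutases turn superoxide into hydrogen peroxide. Catalase, glutathione peroxidases and peroxiredoxins then remove the peroxide, the peroxidases and peroxiredoxins drawing on glutathione and thioredoxin, and glutathione transferases couple glutathione to reactive products of lipid damage. The RPE is known for high oxidative load, since it lies next to the blood supply, absorbs light and digests the lipid-rich tips of the photoreceptors every day. Many of these genes are switched on by the transcription factor Nrf2, which Keap1 marks for degradation and which binds a short DNA sequence, the antioxidant response element.

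The core of that element, TGACNNNGC, was searched on both strands of the 300 bases around the start of each gene (most of them before the start, RefSeq, build GRCm38.p6). A promoter was given for 41 of the 49 members, and 11 of these 41 genes (26.8%) held the core in at least 1 promoter, against 14.0% of all 27025 genes in the same table. A match is a description of the letters and not a measured binding site. The stretches below show the core in 8 members whose measured values come up again, each 5′ to 3′ along the gene's own strand, with the 9 bases of the core in capitals. In Gstm5, Gstm7 and Nfe2l2 the core reads forward, and in the other 5 it lies on the opposite strand and reads GCNNNGTCA.
Sod1 (chr16:90220696-90220724, + strand): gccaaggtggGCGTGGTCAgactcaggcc
Prdx1 (chr4:116685456-116685484, + strand): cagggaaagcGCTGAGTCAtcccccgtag
Txnrd1 (chr10:82859104-82859132, + strand): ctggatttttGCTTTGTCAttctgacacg
Gclm (chr3:122245413-122245441, + strand): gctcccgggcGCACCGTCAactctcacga
Gstm5 (chr3:107895802-107895830, + strand): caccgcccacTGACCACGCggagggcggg
Gstm7 (chr3:107931725-107931753, - strand): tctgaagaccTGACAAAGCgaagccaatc
Mgst1 (chr6:138140461-138140489, + strand): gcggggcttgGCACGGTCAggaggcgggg
Nfe2l2 (chr2:75704885-75704913, - strand): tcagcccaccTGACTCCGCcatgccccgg
In these 8 the core lies before the start, with its first base between 240 and 42 bases upstream of it. The other 3 members with a core were Gsta3, where it also lies before the start, and Srxn1 and Msrb2, where it lies 29 and 40 bases into the transcript.

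Across the set, PR stood below both neighbours, and the median difference was smaller between RPE and CH than to PR. By the limma test described below, under the main normalization, members still separated RPE from CH more often than genes at large. At an adjusted p below 0.01, 16.3% were higher in RPE (4.79% of all genes) and 20.4% in CH (7.47%). A fit limited to probes well above background on all arrays of at least 1 tissue gave gene shares of 7.5% and 11.1%. On the Cy5 channel alone 0 and 1 members passed (0.195% and 1.79% of all genes). With median centring 0 and 9 did (0.33% and 7.28%). The CH samples also carried much of the RPE marker signal, as given above. The mean was lowest in PR for 42 of the 49 members. It was highest in RPE for 27, in CH for 20 and in PR for 2 (Glrx and Gsto1, neither past the test against RPE or CH). The order of means was not counted over all genes. All 3 RPE arrays were above all 3 PR arrays for 89.8% of members and 28.6% of all genes. For CH above PR the shares were 79.6% and 28.3%. In the reverse directions 1 member each was found (29.5% of all genes for PR over RPE and 33.4% for PR over CH). Both PR comparisons use the same PR arrays and both RPE comparisons the same RPE arrays, so the 3 sets of differences are not independent. The colour map of the 9 arrays shows the set as a whole.

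**Figure D1:**
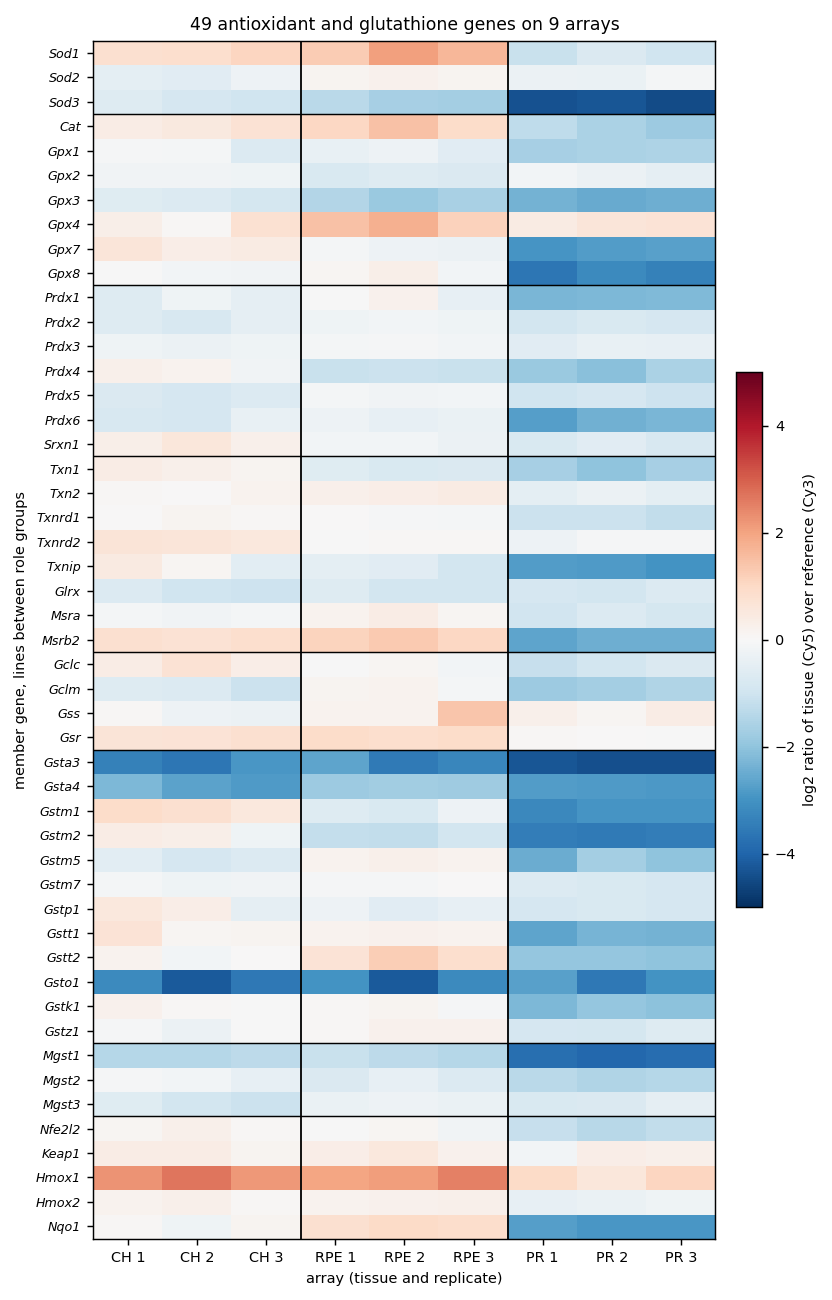
Log2 ratio of tissue (Cy5) over the common reference (Cy3) for the 49 members (rows, reported probe, ordered by role group with lines between groups) on the 9 arrays (columns, 3 per tissue). Blue is below the reference and red above it. The 3 PR columns are the bluest for 42 of the 49 genes by their mean, and the CH and RPE columns look alike in most rows. This order was not counted over all genes.

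A member was called when limma gave a fold change (FC) above 2.5 and a Benjamini-Hochberg (B-H) adjusted p below 0.01 over all probes. In RPE against PR, 18 of the 49 members were called higher in RPE, 36.7% of the set against 10.8% of all genes. None was called higher in PR, where 5.22% of all genes were. By adjusted p alone, with any FC, 40 members were higher in RPE (20.7% of all genes) and 1 was higher in PR (19.3% of all genes). In CH against PR, 23 members were called higher in CH, 46.9% of the set against 12.7% of all genes, and none higher in PR, where 6.08% of all genes were called. All members were well above background. With the fit limited to probes well above background on all arrays of at least 1 tissue, 18 and 23 members were again called. The gene shares were then 15.8% in RPE over PR and 18.3% in CH over PR, and 7.62% and 8.86% in the opposite directions. By adjusted p alone 37 members were higher in CH (22.3% of all genes) and none in PR (21.3% of all genes). At an unadjusted p below 0.05 with any FC, 1 member was higher in PR than in RPE (28.1% of all genes) and 0 were higher in PR than in CH (30.3% of all genes), and no test other than limma was run. The median difference over the members was 1.04 for RPE minus PR and 1.22 for CH minus PR on the log2 scale, while the medians over all genes were -0.0064 and -0.050.

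RPE against CH gave another picture. No member was called in either direction, where 0.179% of all genes were called higher in RPE and 1.74% higher in CH. For 49 members, 0 calls is near those shares. At an unadjusted p below 0.05 with any FC, limma gave 18 members higher in RPE and 14 higher in CH, against 16.7% of all genes in each direction. By adjusted p alone, 8 members were higher in RPE (16.3% of the set, 4.79% of all genes) and 10 were higher in CH (20.4% of the set, 7.47% of all genes). Their FCs were between 1.43 and 2.47. The median over the members was 0.12 and over all genes 0.031. Whether these small differences passed the test depended on the normalization. On the Cy5 channel alone 0 members were higher in RPE (0.195% of all genes) and 1 in CH (1.79% of all genes) by adjusted p. The authors' own series table also gave 0 and 1 (0.113% and 1.26% of all genes). The 18 differences themselves moved little there, by a median of 0.048 and 0.054 on the log2 scale and most for Gpx4, none reversed, and their median SE rose from 0.13 to 0.19 and 0.20. With median centring in place of loess, 0 members were higher in RPE (0.33% of all genes) and 9 in CH (7.28% of all genes). All 18 differences then shifted toward CH, by a median of -0.32, and the median over the members turned to -0.18 (0.024 over all genes). Single arrays also mattered. Without CH replicate 3 or RPE replicate 3, 2 members (Gstm1 and Gstm2) were called higher in CH (2.33% and 1.58% of all genes). With median centring 4 were (these and Prdx4 and Txn1, 3.29% of all genes). Of the 18 members past the adjusted p, 11 lost it without at least 1 of the 9 arrays, and 7 kept it without each (Gpx3, Prdx4, Prdx5, Txn1, Gstm1, Gstm2 and Nqo1).

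The arrays came on 3 slides. Slide 1 held CH and RPE replicates 1 and 3, slide 2 held replicate 2 of each tissue and slide 3 held PR replicates 1 and 3. With the slide as a fixed block, 0 members were called in RPE over CH (0.163% of all genes) and 0 in CH over RPE (1.77%). In the same fit 21 were called in RPE over PR (10.5%) and 24 in CH over PR (12.2%). Within slide 1, 0 members differed by more than 2.5-fold between RPE and CH, where 0.205% of all genes were past it in RPE over CH and 1.62% in CH over RPE. Within slide 2, where each tissue has 1 array and no test is possible, 2 members were past 2.5-fold in RPE over CH (1.10% of all genes), 2 in CH over RPE (3.25%), 21 in RPE over PR (10.8%) and 24 in CH over PR (13.0%).

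**Figure D2:**
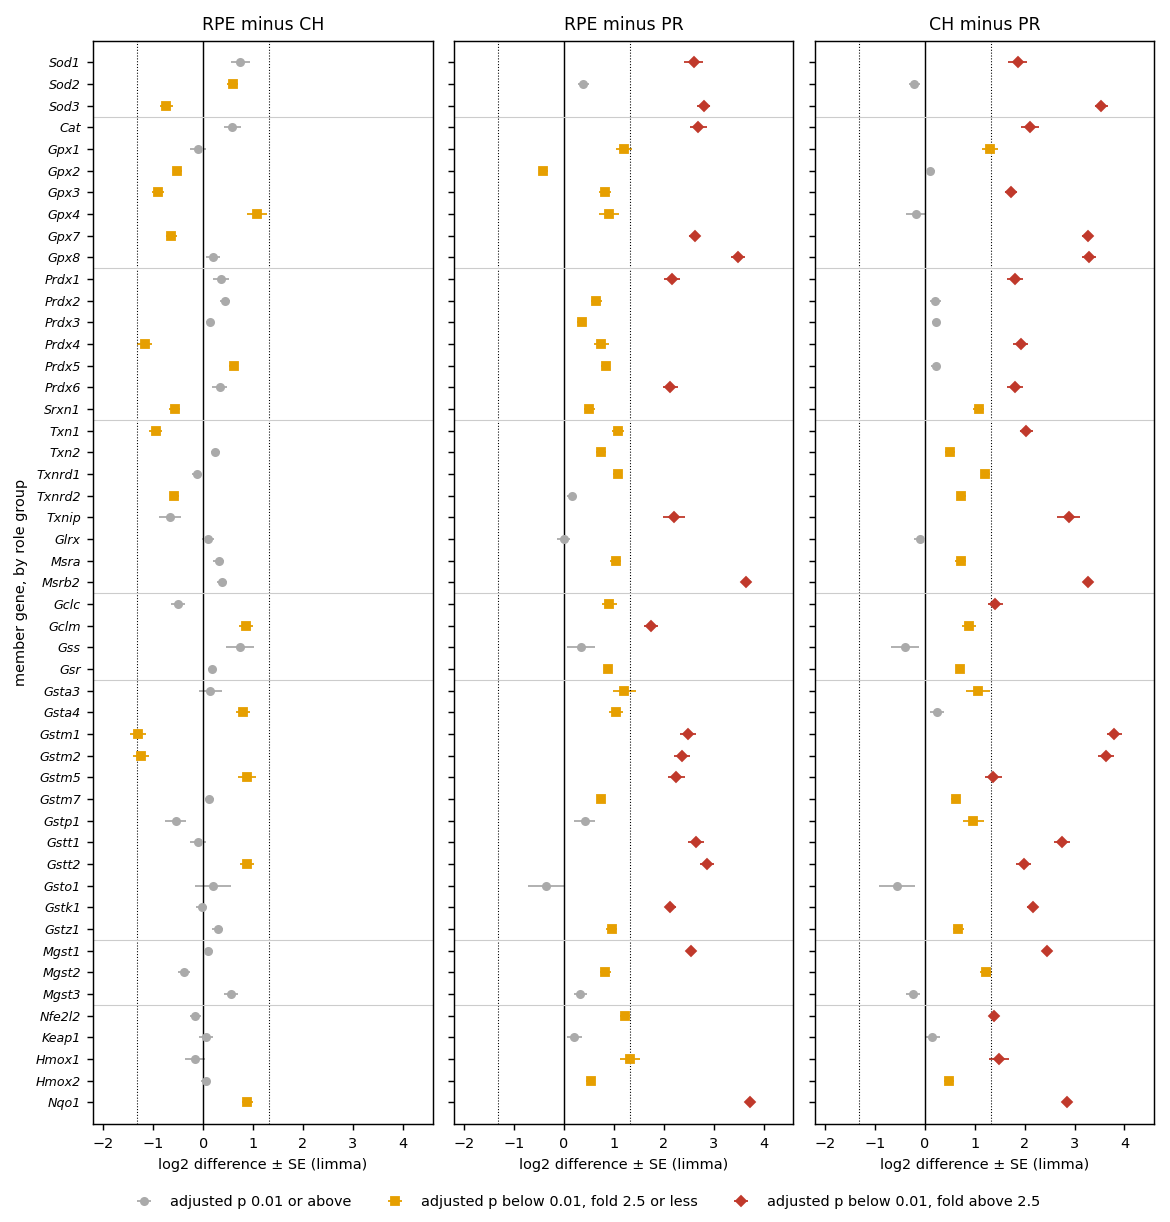
Log2 difference with its standard error (limma) for the 49 members in RPE minus CH, RPE minus PR and CH minus PR. Dotted lines mark a fold of 2.5, and red diamonds are past it with an adjusted p below 0.01. No member is past it in RPE minus CH, 18 are in RPE minus PR and 23 in CH minus PR, all to the right of 0.

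The 3 superoxide dismutases gave 3 different patterns. Sod1, the copper and zinc enzyme of the cytosol (NM_011434, probe at chr16:90226509-90226568, mm9), read 0.80, 0.84 and 1.08 on the CH arrays, 1.26, 2.04 and 1.66 on the RPE arrays and -1.13, -0.73 and -0.99 on the PR arrays. Each RPE array was above each CH array and each CH array above each PR array. Sod1 was 6.08-fold higher in RPE than in PR (log2 difference 2.60 ± 0.19 SE, adjusted p = 1.96e-06, limma) and 3.62-fold higher in CH than in PR (adjusted p = 1.79e-05). On the Cy5 channel alone CH over PR had a log2 difference of 1.13, and 1.26 in the series table, both below the FC threshold. Over the alternative settings the RPE minus PR difference lay between 1.44 and 2.80, past the thresholds wherever it was tested. Against CH the RPE value was 1.68-fold with an adjusted p of 0.0200, short of the threshold of 0.01. The promoter of Sod1 is among those shown above.

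Sod2, the manganese enzyme of mitochondria (NM_013671, chr17:13208074-13208133), read -0.50, -0.56 and -0.27 on the CH arrays, 0.13, 0.21 and 0.12 on the RPE arrays and -0.28, -0.33 and -0.081 on the PR arrays. The 3 RPE arrays were the highest, and the CH and PR arrays overlapped. RPE was 1.51-fold higher than CH (adjusted p = 0.00411), and the differences to PR did not pass the test (0.38 for RPE minus PR, adjusted p = 0.0142). The adjusted p against CH was between 0.0146 and 0.0217 without CH replicate 1, CH replicate 2 or any single RPE replicate, at differences of 0.54 to 0.61 against 0.60 with all arrays. It was 0.0896 on the Cy5 channel alone, at 0.49.

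Sod3, the secreted enzyme that binds to the extracellular matrix (NM_011435, chr5:52760685-52760744), read -0.66, -0.83 and -0.99 on the CH arrays, -1.33, -1.66 and -1.70 on the RPE arrays and -4.36, -4.27 and -4.46 on the PR arrays. No 2 tissues overlapped, with CH highest and PR far below. Sod3 was 11.6-fold higher in CH than in PR (log2 difference 3.54 ± 0.13 SE, adjusted p = 1.59e-08), 6.95-fold higher in RPE than in PR (adjusted p = 9.63e-08) and 1.67-fold higher in CH than in RPE (adjusted p = 0.00329). The last of these had an adjusted p between 0.0131 and 0.0157 without CH replicate 1, CH replicate 2, RPE replicate 2 or RPE replicate 3, at RPE minus CH differences of -0.74 to -0.65 against -0.74 with all arrays. It was 0.0277 on the Cy5 channel alone, at -0.79.

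Of catalase and the 6 glutathione peroxidases, 3 were called in RPE over PR (Cat, Gpx7 and Gpx8) and 4 in CH over PR (the same 3 genes and Gpx3). Over all genes the shares called were 10.8% and 12.7%. Gpx8, a peroxidase of the endoplasmic reticulum (NM_027127, chr13:113833213-113833272), had one of the 3 largest differences of the set between RPE and PR. It read -0.021, -0.14 and -0.16 on the CH arrays, 0.096, 0.28 and -0.12 on the RPE arrays and -3.62, -3.18 and -3.39 on the PR arrays. All PR arrays were below all others, while the RPE arrays overlapped those of CH. Gpx8 was 11.2-fold higher in RPE (log2 difference 3.48 ± 0.14 SE, adjusted p = 3.75e-08) and 9.79-fold higher in CH than in PR. Gpx7, its close relative in the same compartment, was 6.14-fold and 9.57-fold higher than in PR, and 1.56-fold higher in CH than in RPE (adjusted p = 0.00274). The last of these had an adjusted p (limma) between 0.0101 and 0.0138 without CH replicate 1, RPE replicate 2 or RPE replicate 3. On the Cy5 channel alone it was 0.449, at an RPE minus CH difference of -0.69.

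Catalase, the peroxisomal enzyme that splits hydrogen peroxide into water and oxygen, had mean ratios of 1.13 ± 0.28 in RPE, 0.54 ± 0.17 in CH and -1.57 ± 0.28 in PR (SD, n = 3). That is 6.47-fold higher in RPE than in PR (adjusted p = 9.94e-07) and 4.30-fold higher in CH than in PR. The 2 probes for Cat placed it alike against PR, but for RPE against CH the reported probe gave 0.59 (adjusted p = 0.0410) and the other 1.04 (adjusted p = 0.00187). That second probe is 60 bases long but its ends lie 3343 bases apart on chr2:103297086-103300428 (mm9), so it spans an exon junction. It is shown 5′ to 3′ with no base marked, because whether Cat passed the adjusted p between RPE and CH depended on the probe, while neither probe was past the FC threshold.
Cat junction probe: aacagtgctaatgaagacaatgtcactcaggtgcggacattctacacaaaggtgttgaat
Its values were -0.52, -1.20 and -1.11 on the CH arrays, 0.0061, 0.15 and 0.11 on the RPE arrays and -2.71, -2.80 and -2.70 on the PR arrays, with the 3 tissues apart and RPE on top.

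The other glutathione peroxidases did not move as a block. Gpx4, which reduces lipid peroxides within membranes, was 2.11-fold higher in RPE than in CH (adjusted p = 0.00413) and 1.86-fold higher in RPE than in PR (adjusted p = 0.00352), with means of 1.46 ± 0.31, 0.38 ± 0.35 and 0.56 ± 0.13 in RPE, CH and PR. Its spot was saturated on 1 of the RPE arrays, so the RPE values carry that limit. The difference to CH was 0.42 on the Cy5 channel alone (adjusted p = 0.179) and 0.24 in the series table. With CH replicate 1, CH replicate 2, RPE replicate 1 or RPE replicate 2 left out, the adjusted p was between 0.0160 and 0.0180 at differences of 0.92 to 1.08. Gpx1, the main cytosolic form, was 2.30-fold higher in RPE and 2.47-fold higher in CH than in PR, both past the adjusted p and under the FC threshold. Gpx3, the form secreted into plasma, was 3.31-fold higher in CH than in PR and 1.88-fold higher in CH than in RPE (adjusted p = 9.65e-04). Gpx2, known from the gut epithelium, was the 1 member lower in RPE than in PR by adjusted p, 1.33-fold (adjusted p = 0.00511), and it was also 1.43-fold lower than in CH (adjusted p = 0.00483).

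Peroxiredoxins reduce peroxides, mostly with the help of thioredoxin, and sulfiredoxin (Srxn1) repairs them when they are over-oxidised. All 7 members of the group were higher in RPE than in PR by adjusted p (20.7% of all genes), and 2 of them were called (10.8%). Prdx1, a cytosolic form, was 4.51-fold higher (adjusted p = 2.08e-06) and Prdx6, which also acts on phospholipids, 4.38-fold higher (adjusted p = 2.05e-06). Both were also called in CH over PR, 3.50-fold and 3.48-fold. The 4 probes for Prdx6 gave log2 differences between 0.66 and 2.13 for RPE minus PR, and with their mean Prdx6 was no longer called against PR, at 1.28 for RPE and 0.77 for CH. One of the 4 was not well above background on any PR array and was at least 1.34-fold higher in RPE and at least 1.24-fold higher in CH, bounds set by the dimmest signal measured there. Prdx4, the secretory form, was highest in CH, with means of 0.074 ± 0.22 in CH, -1.10 ± 0.022 in RPE and -1.84 ± 0.25 in PR. It was 2.25-fold higher in CH than in RPE (adjusted p = 6.69e-04) and 3.78-fold higher in CH than in PR. Prdx5, found in mitochondria and peroxisomes, went the other way between those layers, 1.53-fold higher in RPE than in CH (adjusted p = 0.00153). Prdx2 and Prdx3 differed by at most 1.57-fold between any 2 tissues. Srxn1 was 1.49-fold higher in CH than in RPE (adjusted p = 0.00572).

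Among the thioredoxin, glutaredoxin and methionine sulfoxide reductase genes, Msrb2 had the largest differences against PR. Its product is a mitochondrial enzyme that repairs oxidised methionine in proteins (NM_029619, chr2:19316431-19316490). It read 0.80, 0.71 and 0.83 on the CH arrays, 1.11, 1.31 and 1.04 on the RPE arrays and -2.62, -2.43 and -2.44 on the PR arrays. The PR arrays lay more than 3 log2 units below every other array, and each RPE array was above each CH array by less than 1 unit. Msrb2 was 12.5-fold higher in RPE than in PR (log2 difference 3.65 ± 0.10 SE, adjusted p = 7.98e-09) and 9.66-fold higher in CH than in PR (adjusted p = 7.11e-09). Between RPE and CH it was 1.30-fold with an adjusted p of 0.0270.

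Txnip, which binds and inhibits thioredoxin, was called in RPE over PR (4.62-fold, adjusted p = 1.86e-05) and in CH over PR (7.35-fold). Its second probe gave 0.45 and 0.50 on the log2 scale, neither past the test. Thioredoxin itself (Txn1) was 4.09-fold higher in CH than in PR and 1.94-fold higher in CH than in RPE (adjusted p = 7.97e-04). Its reductase Txnrd1 differed little between RPE and CH (-0.12, adjusted p = 0.388) and was 2.11-fold higher in RPE than in PR. The mitochondrial pair was small in its differences, with Txn2 1.67-fold higher in RPE than in PR and Txnrd2 1.49-fold higher in CH than in RPE (adjusted p = 0.00180). Msra, the other methionine sulfoxide reductase, was 2.05-fold higher in RPE than in PR. Glrx, a glutaredoxin, did not pass the test in any comparison, with means of -0.91 ± 0.19, -0.82 ± 0.15 and -0.81 ± 0.12 in CH, RPE and PR.

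**Figure D3:**
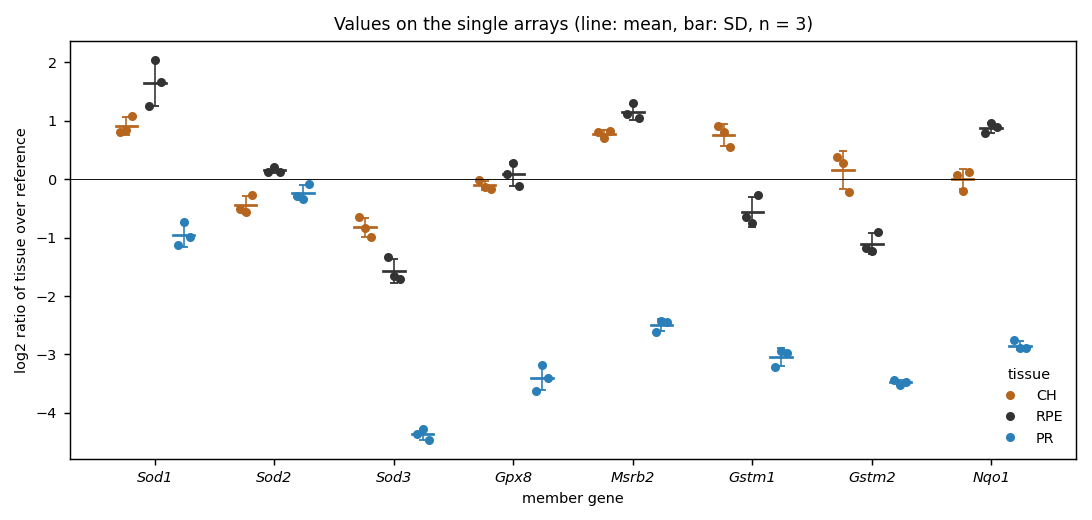
Values of 8 members on the single arrays, as log2 ratio of tissue over reference, with the mean (line) and SD (bar) of the 3 arrays of CH, RPE and PR. The PR arrays lie below all CH and RPE arrays in each gene but Sod2. Sod3, Gstm1 and Gstm2 are highest in CH, while Sod1, Sod2, Msrb2 and Nqo1 are highest in RPE.

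Glutathione is made by glutamate-cysteine ligase, built from a catalytic (Gclc) and a modifier subunit (Gclm), followed by glutathione synthetase (Gss). The oxidised form is restored by glutathione reductase (Gsr). The means of the 2 subunits of the ligase stood in opposite order in RPE and CH. Gclm had means of 0.064 ± 0.15 in RPE, -0.80 ± 0.25 in CH and -1.68 ± 0.15 in PR, 1.81-fold higher in RPE than in CH (adjusted p = 0.00264) and called in RPE over PR (3.34-fold, adjusted p = 4.55e-06). Against CH its adjusted p (limma) was 0.0134 without RPE replicate 1 and 0.0123 without RPE replicate 2. On the Cy5 channel alone it was 0.0283. Gclc had means of -0.027 ± 0.13, 0.48 ± 0.20 and -0.93 ± 0.23, and was called in CH over PR (2.65-fold, adjusted p = 1.90e-05), while its difference of -0.50 between RPE and CH did not pass the test (adjusted p = 0.0340). The call on Gclc was lost without CH replicate 2 or without PR replicate 1, at log2 differences of 1.29 in both cases, and in the series table at 1.31. Gsr was 1.84-fold higher in RPE and 1.62-fold higher in CH than in PR by adjusted p, and its 2 probes gave like values. Gss read 0.041, -0.24 and -0.29 on the CH arrays, 0.19, 0.18 and 1.38 on the RPE arrays and 0.24, 0.10 and 0.39 on the PR arrays. RPE replicate 3 lay more than 1 log2 unit above the other 2 RPE arrays, and no comparison of Gss passed the test.

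The 12 cytosolic and mitochondrial glutathione transferases held the largest differences of the whole set in CH over PR. In each PR comparison 6 of the 12 were called, Gstm1, Gstm2, Gstm5, Gstt1, Gstt2 and Gstk1. Of all genes 10.8% were called in RPE over PR and 12.7% in CH over PR. Gstm1, a mu class transferase of the cytosol (NM_010358), read 0.90, 0.81 and 0.54 on the CH arrays, -0.65, -0.75 and -0.27 on the RPE arrays and -3.22, -2.94 and -2.97 on the PR arrays. The 3 tissues did not overlap, with CH on top. Gstm1 was 13.8-fold higher in CH than in PR (log2 difference 3.79 ± 0.15 SE, adjusted p = 2.73e-08), 5.60-fold higher in RPE than in PR (adjusted p = 5.62e-07) and 2.47-fold higher in CH than in RPE (adjusted p = 4.74e-04), just under the FC threshold of 2.5. The files place this probe on chr5 (chr5:117082490-117082549, mm9) although its accession is that of Gstm1. The dimmer probe at the Gstm1 position of chr3 gave smaller differences, 1.89 for CH minus PR, 1.28 for RPE minus PR (adjusted p = 0.00404) and -0.61 for RPE minus CH (adjusted p = 0.176), with CH and RPE overlapping.

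Gstm2, its neighbour in the same gene cluster (NM_008183, chr3:107784622-107784681), read 0.38, 0.28 and -0.22 on the CH arrays, -1.19, -1.23 and -0.90 on the RPE arrays and -3.44, -3.52 and -3.46 on the PR arrays. Again CH was on top, then RPE, then PR, with no overlap. Gstm2 was 12.3-fold higher in CH than in PR (log2 difference 3.62 ± 0.16 SE, adjusted p = 4.85e-08), 5.17-fold higher in RPE than in PR and 2.38-fold higher in CH than in RPE (adjusted p = 7.40e-04). The other 2 probes for Gstm2 gave 2.12 and 2.19 for CH minus PR. Mu class genes are close relatives, so a probe could read more than 1 of them. Between probes of different members in the set, at most 34 of 60 bases matched in any ungapped alignment, and probes were not compared with the rest of the genome.

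Gstm5, from the same cluster, had the opposite order between RPE and CH. Its means were 0.20 ± 0.060 in RPE, -0.68 ± 0.14 in CH and -2.05 ± 0.39 in PR, 1.84-fold higher in RPE than in CH (adjusted p = 0.00600) and 4.77-fold higher in RPE than in PR (adjusted p = 2.82e-06). Its CH over PR call, 2.59-fold, was lost without CH replicate 1 or PR replicate 1, at log2 differences of 1.30 and 1.17, and was 0.97 with the slide as a fixed block. The RPE over CH difference had an adjusted p between 0.0115 and 0.0290 without any single CH or RPE replicate or PR replicate 3, at differences of 0.81 to 0.95 against 0.88 with all arrays. Gstm7 differed by at most 1.67-fold. Of the theta class, Gstt2 was 7.26-fold and Gstt1 6.22-fold higher in RPE than in PR (adjusted p = 1.64e-07 and 5.04e-07), and Gstt2 was also 1.85-fold higher in RPE than in CH (adjusted p = 0.00233). Gstk1, the kappa form of mitochondria and peroxisomes, was 4.37-fold higher in RPE than in PR and did not separate RPE from CH (-0.031, adjusted p = 0.883).

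The alpha class member Gsta4, which acts on the lipid aldehyde 4-hydroxynonenal, was 1.73-fold higher in RPE than in CH (adjusted p = 0.00294) and 2.05-fold higher in RPE than in PR (adjusted p = 1.22e-04). Against CH the adjusted p (limma) was between 0.0116 and 0.0157 without CH replicate 2 or any single RPE replicate. On the Cy5 channel alone it was 0.0383. Gsta3 was 2.31-fold higher in RPE than in PR at its reported probe, and its dimmer probe was past both thresholds in both PR comparisons. Gstz1, which also serves tyrosine breakdown, was 1.94-fold higher in RPE than in PR. Gstp1, the pi class enzyme, passed the test only for CH minus PR (0.96, adjusted p = 0.00323), and its second probe gave -0.097. Gsto1 read far below the reference in every tissue, -3.17, -4.21 and -3.58 on the CH arrays, -2.98, -4.19 and -3.19 on the RPE arrays and -2.72, -3.57 and -2.98 on the PR arrays. Replicate 2 was the lowest of each tissue, these 3 arrays share slide 2, and no comparison passed the test.

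The microsomal transferases are membrane proteins, and Mgst1 was the one called. Mgst1 had means of -1.28 ± 0.16 in RPE, -1.38 ± 0.053 in CH and -3.83 ± 0.075 in PR, 5.85-fold higher in RPE than in PR (adjusted p = 4.15e-08) and 5.46-fold higher in CH than in PR (adjusted p = 3.52e-08). Its second probe gave larger values, 3.53 and 3.54 on the log2 scale. Mgst2 was 2.33-fold higher in CH than in PR by adjusted p. Mgst3 did not pass the test at its reported probe in any comparison, with 0.56 for RPE minus CH (adjusted p = 0.0151).

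Nrf2 itself, its partner Keap1, the quinone reductase Nqo1 and the haem oxygenases Hmox1 and Hmox2 closed the set. Nqo1, the best known Nrf2 target (NM_008706, chr8:109912440-109912499), had the largest difference between RPE and PR of all 49 members. It read 0.075, -0.20 and 0.12 on the CH arrays, 0.79, 0.96 and 0.89 on the RPE arrays and -2.76, -2.89 and -2.89 on the PR arrays. The 3 tissues did not overlap, and the spread within each was small. Nqo1 was 13.3-fold higher in RPE than in PR (log2 difference 3.73 ± 0.11 SE, adjusted p = 9.24e-09), 7.19-fold higher in CH than in PR (adjusted p = 2.10e-08) and 1.84-fold higher in RPE than in CH (adjusted p = 6.36e-04). On the Cy5 channel alone the last of these had a log2 difference of 0.87 and an adjusted p of 0.0119. Its 300-base promoter held no TGACNNNGC.

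Nfe2l2 was 2.33-fold higher in RPE (adjusted p = 7.62e-06) and 2.61-fold higher in CH than in PR (adjusted p = 2.55e-06), the second of these past the FC threshold, and RPE and CH were close (-0.16, adjusted p = 0.346). The CH over PR difference was 1.32 without PR replicate 2 and 0.98 on the Cy5 channel alone, both under the FC threshold. Keap1 did not pass the test in any comparison, and its differences lay between 0.058 and 0.21. Hmox1, the inducible haem oxygenase, had means of 2.36 ± 0.29 in CH, 2.19 ± 0.28 in RPE and 0.87 ± 0.26 in PR. It was 2.80-fold higher in CH than in PR (adjusted p = 1.07e-04) and higher in RPE by a log2 difference of 1.32 (adjusted p = 2.79e-04), just under the FC threshold. Without CH replicate 2 the CH over PR difference was 1.32, also under it. With the mean of its 2 probes it was 0.67. The second probe did not follow the first, with -0.14 for CH minus PR (adjusted p = 0.835) and RPE replicate 3 well above the other RPE arrays. Hmox2, the constitutive form, was 1.45-fold higher in RPE and 1.40-fold higher in CH than in PR by adjusted p.

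Set against the promoters, 6 of the 11 members with the core were called in RPE over PR and 9 of the 30 members whose promoters lacked it (10.8% of all genes). In CH over PR the counts were 6 of 11 and 12 of 30 (12.7% of all genes). By adjusted p, all 11 members with the core were higher in RPE and in CH than in PR. Of the 30 without it, 21 were higher in RPE and 19 in CH. Of the 8 with no promoter given, 8 were higher in RPE and 7 in CH. By adjusted p alone the shares over all genes were 20.7% and 22.3%. The medians of RPE minus PR were 1.74 with the core and 0.82 without, and those of CH minus PR were 1.37 and 0.85. These are descriptions of 300 bases per promoter, with no test.

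Between RPE and CH, the members that differed by adjusted p fell on both sides in 4 of the 8 role groups (dismutases, catalase and glutathione peroxidases, peroxiredoxins, and cytosolic and mitochondrial transferases). Higher in RPE were Sod2, Gpx4, Prdx5, Gclm, Gsta4, Gstm5, Gstt2 and Nqo1. Higher in CH were Sod3, Gpx2, Gpx3, Gpx7, Prdx4, Srxn1, Txn1, Txnrd2, Gstm1 and Gstm2. In the same comparison, the 8 RPE markers had a median RPE minus CH difference of 1.60, the 8 rod markers one of 0.57 with none past the test, and the 6 fibroblast markers one of -2.41. Of 5 melanocyte and pigment markers 3 were called higher in CH. Another, Tyr, went the other way and was higher in RPE by adjusted p (0.68, adjusted p = 0.00875, limma). The sums of the list were 1092720 to 1223046 in CH and 729827 to 885281 in RPE. All 6 fibroblast, all 8 rod and 7 of 8 RPE markers were well above background on all 9 arrays. Their part in the differences of the members was not tested.

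**Figure D4:**
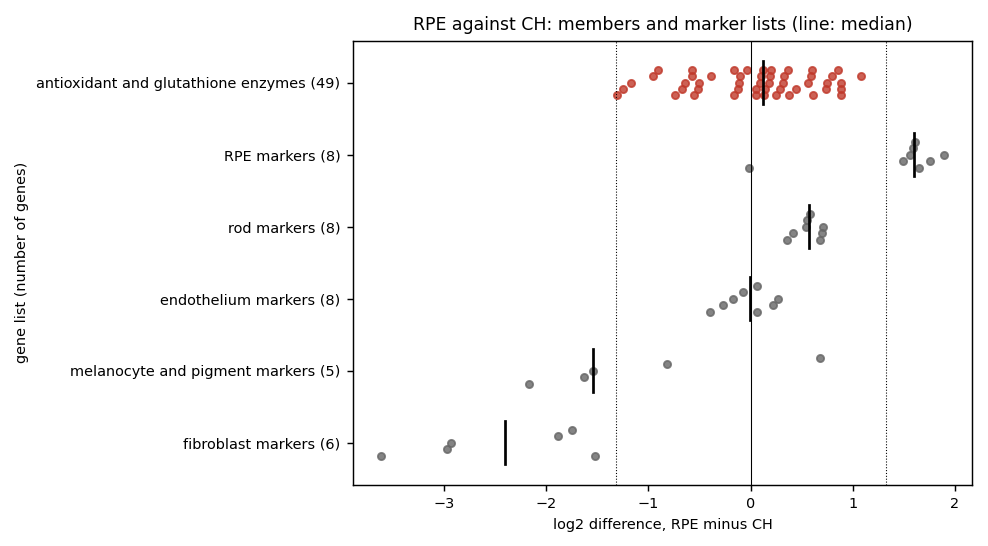
Log2 difference RPE minus CH for each of the 49 members (red) and for the genes of 5 marker lists (grey), with the median of each list as a line and dotted lines at a fold of 2.5. The members lie between -1.31 and 1.08 around a median of 0.12 (-0.18 with median centring), within the dotted lines, while the fibroblast markers lie to the left of them and 7 of 8 RPE markers to the right.

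In the PR comparisons, vessel and connective tissue markers were lower in PR. Of 8 endothelial markers 7 were called higher in RPE than in PR and 7 higher in CH, with sums of 17108 to 21949 in PR against 165844 to 197038 in RPE and 151527 to 213678 in CH. The fibroblast sum in PR was 45724 to 59956. The 6 markers of Müller glia, the supporting cells of the retina, did not go 1 way. Glul, Vim and Apoe (3 of 6) were called higher in RPE than in PR, and these and Gfap (4 of 6) higher in CH. Slc1a3 and Aqp4 went the other way without passing the test. Their differences were -0.69 and -0.42 for RPE minus PR and -0.98 and -0.58 for CH minus PR. For red blood cells, 1 of 6 markers (Alas2) was called higher in RPE and in CH than in PR. Whether these cells took part in the differences of the enzymes between PR and its neighbours was not tested.

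The counts of the pathway lists that follow stand beside these shares of all genes. In RPE over PR 10.8% were called, and in CH over PR 12.7%. In PR over RPE 5.22% were, and in PR over CH 6.08%. In RPE over CH 0.179% were, and in CH over RPE 1.74%. Of 22 further redoxins and transferases, 7 were called in RPE over PR, 7 in CH over PR and none in PR over either, with medians of 0.71 for RPE minus PR and 0.46 for CH minus PR. Gsta2 and Gsta1, alpha class transferases, are close relatives that 1 probe may not tell apart, and had the largest differences, 5.22 and 4.90 on the log2 scale for RPE minus PR. Gstp2 was the 1 gene of this list called between RPE and CH, higher in CH (-1.64 for RPE minus CH, adjusted p = 5.81e-04). NADPH is the electron donor that glutathione reductase and thioredoxin reductase draw on. Of 12 genes that supply it, 6 were called in RPE over PR and 1 in PR over RPE, against 5 and 1 for CH and PR and none between RPE and CH, with medians of 1.13 and 1.06. The mitochondrial malic enzyme Me3 led with 3.92 for RPE minus PR and 3.20 for CH minus PR. Next came Nnt, which moves electrons onto NADP in mitochondria, with 3.05 for RPE minus PR.

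Of 18 genes for the supply of cysteine and the turnover of glutathione, 6 were called in RPE over PR, 4 in CH over PR and 1 in PR over each, with medians of 0.89 and 0.40. Slc1a1, a transporter of glutamate and cysteine, was the 1 gene of the list called in RPE over CH (1.38, adjusted p = 0.00316), and was 4.64 higher on the log2 scale in RPE than in PR. Ggt1, which cleaves glutathione outside the cell, had a difference of 3.64 for RPE minus PR. Anpep, an aminopeptidase that acts after it, was called in CH over RPE (-1.94 for RPE minus CH) and had the largest CH minus PR difference of the list, 4.73. Of 18 Nrf2 regulators and further targets, 8 were called in RPE over PR and 1 in PR over RPE, 7 in CH over PR and 1 in PR over CH, and none between RPE and CH, with medians of 1.28 and 1.06. Abcc4, an export pump, led both PR comparisons with 5.06 for RPE and 4.25 for CH, followed by Maff, a small Maf protein that pairs with Nrf2 (3.30 and 4.19).

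Of 18 genes that form superoxide or hydrogen peroxide, 12 were called in RPE over PR (10.8% of all genes) and 12 in CH over PR (12.7%). Between RPE and CH, 5 were called in CH over RPE (1.74% of all genes) and none in RPE over CH (0.179%). Their median RPE minus CH difference was -0.78. Nox4, an NADPH oxidase, and Lox, which crosslinks collagen and elastin and releases peroxide, had the largest RPE minus CH differences, -1.83 (adjusted p = 9.75e-05) and -1.71 (adjusted p = 2.17e-04). Maob, an amine oxidase of mitochondria, had 3.59 for RPE minus PR. Of 8 macrophage markers 2 were called higher in CH than in RPE, with sums of 132444 to 181852 in CH and 118379 to 143395 in RPE, and their part in this list was not tested.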

How the data were processed

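Dual-colour Agilent arrays, 3 per tissue (CH, RPE and PR), carried the tissue RNA in Cy5 and the common reference in Cy3. The deposited scanner output, made by the authors with Agilent Feature Extraction 9.5.3.1, gives mean and background intensity per spot, and the authors' processed signals and log10 ratio. The submitters' processing notes also name R 2.14.0 and limma. The authors' series table holds deposited log2 values and served as an alternative only. Probe positions are those of the files (mm9).

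Mean signals were background-corrected (normexp, offset 50) and loess-normalized within arrays, with control spots at weight 0 and spots marked as outliers left out (228 to 586 per array). Spots of 1 probe were averaged. Tissue means were compared on all 9 arrays with limma 3.58.1 in R 4.3.3, with B-H adjustment over all 39429 probes. The reported probe of a gene was the brightest in Cy5 among those not saturated on all arrays of a tissue and well above background on all arrays of at least 1 tissue. Tables and figures were made with Python 3.11.15, pandas 2.3.3 and matplotlib 3.10.9. The fit was tested on simulated data.

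Values per array are given for Sod1, Sod2 and Sod3, for members called over both other tissues (none was) and for the 3 largest called differences per direction. Gss, Gsto1 and the second Cat probe were added after their values were seen. The members, the marker and pathway lists and the tests were chosen with earlier results of these data known. Alternatives covered background correction, normalization, thresholds, probe choice, slides and single arrays. The number of arrays limits the precision. The values of 1 gene of a pathway list are not reported here.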

Additional observations from a re-analysis of the deposited data

How the results depend on the processing

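Shares of all genes under the same setting are in brackets. The number of members called higher in RPE than in CH was 0 (0.179%). It became 1 with an FC above 2 (0.946%), 8 with no FC threshold (4.79%) and 2 within slide 2 (1.1%). The number called higher in CH than in RPE was 0 (1.74%) and became 4 with median centring (3.29%) and 1 in the series table (1.06%). It was 3 with an FC above 2 (3.6%), 10 with no FC threshold (7.47%) and 2 within slide 2 (3.25%). Leaving out single arrays gave 0 to 2, with 2 reached without CH replicate 3 (2.33%) and without RPE replicate 3 (1.58%). With no FC threshold, 40 members were higher in RPE than in PR (20.7%) and 1 was higher in PR than in RPE (19.3%). In CH over PR, 37 were higher (22.3%). Leaving out single arrays gave 18 to 20 for RPE over PR (10.7% to 11%) and 21 to 24 for CH over PR (12.4% to 13%). The cause of these shifts was not tested, other than that a lower FC threshold passes more genes. Of the 18 small RPE and CH differences, 17 lost the adjusted p on the Cy5 channel alone and 17 in the series table, 9 with median centring and 4 on the processed signals. None of them reversed, and on the Cy5 channel and in the series table they moved by a median of 0.048 and 0.054 on the log2 scale. For single members against PR, 1 of 439 values lost its call in RPE over PR and 20 of 560 in CH over PR, and none reversed. These totals include values that could not lose a call, those within slide 2 (no test) and those at a gene's best probe. Within slide 2, 3 differences for RPE minus PR and 11 for CH minus PR moved by at least the larger tissue SD. The median of all genes moved to -0.11 for CH minus PR on the processed signals and with median centring. Same-numbered samples did not deviate together in every pair (correlations from -0.078 to 0.29), so the numbers were not taken to pair them. With a replicate block, 0 members were called in RPE over CH (0.17%), 18 in RPE over PR (10.9%) and 23 in CH over PR (12.7%). In each opposite direction 0 were called (1.76%, 5.24% and 6.09%). A block for the slide as a random term gave 0 in RPE over CH (0.185%), 19 in RPE over PR (10.8%) and 24 in CH over PR (12.7%). Counts by adjusted p alone under the other fits were chosen after seeing the data.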
